A study of Mus musculus with 12 samples.

Results

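Jsrp1 and 9 genes of the calcium release and uptake machinery of the endoplasmic reticulum (ER) were followed in whole adrenal glands of mice lacking Abcg1, a cholesterol exporter, in the cortex. The genes were Jsrp1, the ryanodine receptors Ryr1, Ryr2 and Ryr3, the IP3 receptors Itpr1, Itpr2 and Itpr3, and the SERCA pumps Atp2a1, Atp2a2 and Atp2a3. They are 10 of the 24421 genes in the authors' table, and all 10 were found there by symbol. Jsrp1 was selected on its measured values in the contrast described here, as one of the genes with the clearest lower level in Abcg1 cKO adrenals, so its difference is given as a description. The other 9 were chosen for their role in the same organelle, with earlier results of these data known.

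RNA was sequenced from 4 Abcg1 cKO, 4 Abca1 cKO and 4 control libraries of 2-month-old females on a mixed sv129-C57BL/6 background. The Cre recombinase was expressed from the aldosterone synthase (Cyp11b2) locus. Per the paper, only some cells of the zona glomerulosa of the cortex express this gene at any moment. It reports recombination across the whole cortex and describes inactivation as specific to steroidogenic cortical cells. Medulla, capsule, vessels and blood cells lie outside that description. The cKO groups carried Cre and 2 conditional alleles of Abcg1 or of Abca1. The controls carried Cre alone per the design text, while the methods also allow controls with 1 of the conditional alleles. The authors averaged control and Abca1 cKO libraries into 1 comparison group, and its 2 genotypes cannot be told apart here.

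Calcium stored in the ER is released into the cytosol through ryanodine receptors, which open to calcium or to direct coupling with voltage-gated channels, and through IP3 receptors, which open to inositol trisphosphate made by phospholipase C. SERCA pumps return the calcium to the ER. In zona glomerulosa cells angiotensin II acts through IP3 and calcium to drive aldosterone synthesis, and in chromaffin cells of the medulla calcium triggers the secretion of catecholamines. Jsrp1 encodes JP-45, a protein of the junctional membrane of skeletal muscle that binds the L-type calcium channel and calsequestrin.

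All values are the authors' mean normalized count of a group, a count scaled for library depth and averaged over libraries. They carry no spread between animals, so no test was made, and neither the size of the animal error nor the raw depth is known from them. The log2 ratio is that of the means after adding 1 to each, Abcg1 cKO over comparison group, so a negative value is lower in Abcg1 cKO. A gene was counted as higher or lower where this ratio passed a fold of 1.2 and its mean was 10 or more in either group, which held for 14479 genes. Of these genes 10.8% were higher and 12.6% were lower. Their median log2 ratio was 0.0012.

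Abcg1 itself, counted over the whole gene, had a mean of 249.7 in Abcg1 cKO and 305 in the comparison group. Abca1, the gene targeted in the Abca1 cKO libraries of the comparison group, had 10057 against 7791, a log2 ratio of 0.37. What those libraries contribute to this or other ratios was not tested. The cortical markers were present as the tissue label requires. Their summed mean over 6 genes had a log2 ratio of 0.35, with 5 of 6 higher and the ACTH receptor Mc2r at -0.07. Mc2r is named outside the naming rule given below. Markers of other cells differed between the 2 group means too. Over 6 chromaffin cell markers the summed mean was 176405 in Abcg1 cKO and 129603 in the comparison group, with 6 of 6 higher. Over 5 adipocyte markers it was 32812 against 13895, with 5 of 5 higher, and over 6 lymphocyte markers it was 422 against 515, with 6 of 6 lower. Their part in the values of the calcium genes was not tested. In whole-gland RNA fewer cells of a type and less RNA per cell cannot be told apart.

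The mean of Jsrp1 was 23.9 in Abcg1 cKO and 76.2 in the comparison group. The comparison mean was thus 3.19 times the Abcg1 cKO mean, a log2 ratio of -1.63. Among the 14479 genes this was the ratio ranked 79 from the lowest, and 0.649% of genes had a larger absolute ratio. A mean lower by 2-fold or more was found for 1.12% of genes. These ranks describe how the gene came to be chosen and do not test it. At this level ratios spread widely: of 3149 genes with a mean over all libraries from 10 to 100, 32.1% were lower and 17.2% higher by 1.2-fold, and 5% had a log2 ratio under -0.89. Jsrp1 lies on the minus strand of chromosome 10 of GRCm38 (mm10) from 80808496 to 80813498, its longest annotated transcript has 7 exons and 1325 bases, and no other annotated gene overlaps it.

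**Figure D1:**
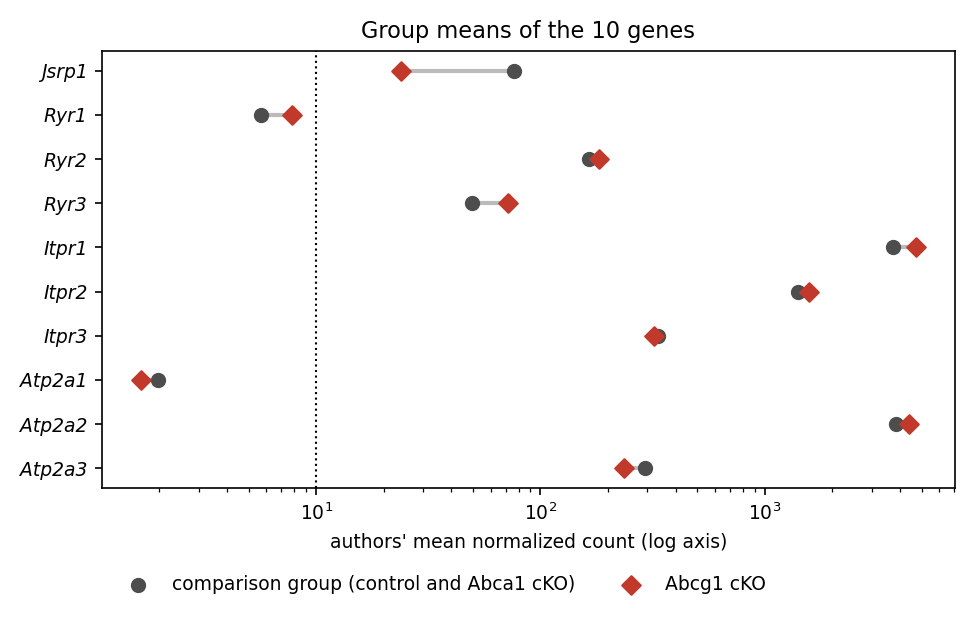
Authors' mean normalized count (log axis) of each of the 10 genes in the comparison group (grey circles) and in Abcg1 cKO (red diamonds), with a dotted line at the minimum mean of 10; no error is shown because only group means were used. Jsrp1 has the longest gap, from 76.2 to 23.9, and Ryr1 and Atp2a1 lie below the line in both groups.

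The skeletal forms of the L-type channel pore and of calsequestrin, partners of JP-45, were scarce in the adrenal. Cacna1s, the pore of the skeletal L-type channel, had a mean of 6.79 in Abcg1 cKO and 5.29 in the comparison group. Casq1, the fast skeletal calsequestrin, had 0.672 against 2.44, and Trdn, which encodes the triad protein triadin, had 0.276 against 0.364. Per kilobase of transcript, the scale on which genes of different length can be compared, the level of Jsrp1 in the comparison group was 57.5, which was 68.0 times that of Cacna1s, 43.5 times that of Casq1 and 155 times that of Ryr1. In Abcg1 cKO, at 18.1 per kilobase, it was 16.6, 49.7 and 35.5 times those levels. Because the means of Cacna1s, Casq1 and Ryr1 were all under 10, the factors are rough.

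Stac3, which encodes an adaptor of the skeletal L-type channel, was the only one of 6 other triad genes examined with a mean of 10 or more. Its mean was 19.8 in Abcg1 cKO and 35.9 in the comparison group, a log2 ratio of -0.83. It had the lowest ratio among the 112 genes counted in 8 lists of calcium handling described further on. In its range of means, 10 to 100, 32.1% of all genes were lower and 5% had a log2 ratio under -0.89. None of the 112 lay below Jsrp1, which was itself selected for its low level in this contrast. The 6 triad genes were picked after their values had been seen. Contractile genes of muscle fibres had near-equal sums: over 12 fibre markers the summed mean was 105 in Abcg1 cKO and 104 in the comparison group, with 5 of 12 higher and 7 of 12 lower. Of the 12, 3 reached a mean of 10. Myh2, Tnnc2 and Pvalb are named because they were at 0 in Abcg1 cKO. Their comparison means were only 0.0858, 0.462 and 0.131. Myh1, a fast myosin heavy chain, had a log2 ratio of -1.62, and Acta1, another of the 12, went the other way at 1.24. Both were under the minimum in both groups and were named after their values were seen. The most abundant were Myl1, a myosin light chain, at 43.9 against 41.7, and Actn3, the fast fibre actinin, at 21.7 against 19.8.

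**Figure D2:**
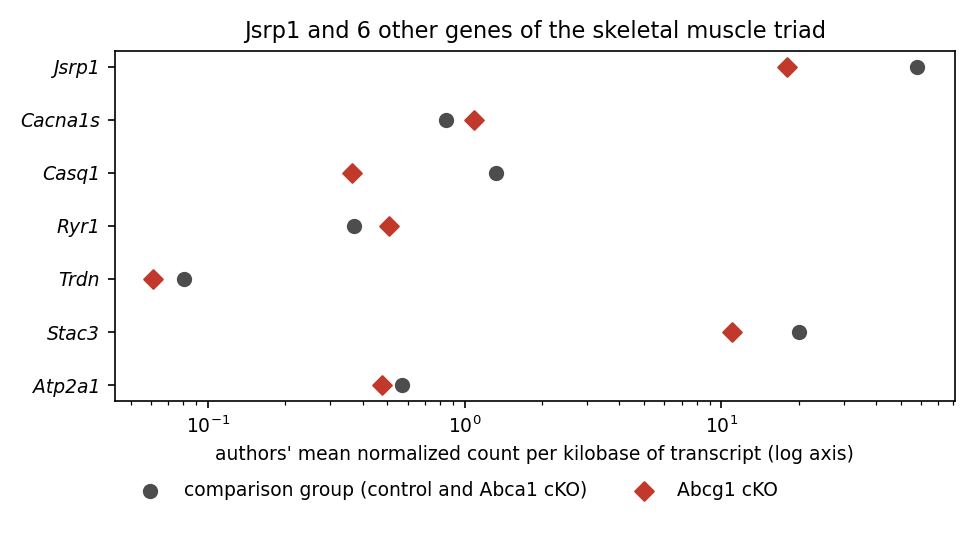
Authors' mean normalized count per kilobase of the longest transcript (log axis) for Jsrp1 and 6 other genes of the skeletal muscle triad, in the comparison group (grey circles) and Abcg1 cKO (red diamonds). Jsrp1 and Stac3 lie at 11.0 per kilobase or more in both groups, and the other 5 genes lie at 1.32 or less.

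None of the 6 counted genes around Jsrp1 was lower, beside 12.6% of all genes, and 1 was higher, beside 10.8%. Within 50 kb on chromosome 10, 9 annotated genes were in the table and 6 had a mean of 10 or more, of which 1 was higher and 5 were within 1.2-fold, with a median log2 ratio of 0.01. Dot1l, a histone methyltransferase that starts at 80755206, was the higher one, at 1419 against 1172 and a log2 ratio of 0.28. Sf3a2, a splicing factor subunit whose end lies 3571 bases away, had a log2 ratio of -0.12, and Plekhj1, Lingo3, Lsm7 and Sppl2b had -0.01, 0.03, -0.18 and 0.06. Amh, the hormone gene that ends 847 bases from Jsrp1, was at a mean of 1.59 in Abcg1 cKO and 4.52 in the comparison group. Its log2 ratio was -1.09, with both means under the minimum. With no filter on low values, 2 of the 9 genes were lower, beside 14.7% of all genes. Oaz1 and Mir1982, on the other side, had mean counts under 1.2 in both groups. Mir1982 lies within the span of Oaz1, and only unique alignments were counted. Whether reads of Oaz1 were lost in counting was not tested, so its mean is not read as an expression level.

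Of the 10 genes, 8 had a mean of 10 or more, and 2 of them were higher, 2 lower and 4 within 1.2-fold. Without Jsrp1, the 7 counted genes ran from a log2 ratio of -0.30 to 0.53 with a median of 0.16, and 5 of the 7 had a higher mean in Abcg1 cKO. By the same fold of 1.2, 10.8% of all genes were higher and 12.6% lower, as given above. The 5 of 7 counts any ratio above 0, so these shares are not its background. The median log2 ratio of all genes was 0.0012.

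The ryanodine receptors were the least abundant channels. Ryr2, the cardiac and neuronal form, had a mean of 183 in Abcg1 cKO and 164 in the comparison group, a log2 ratio of 0.16. Ryr3, a form of low level in many tissues, had 71.4 against 49.3 and a log2 ratio of 0.53, and 96.4% of genes had a lower ratio. Ryr3 was thus counted as higher, in a range of means where 17.2% of genes were. Ryr1, the skeletal form that JP-45 works beside in muscle, had 7.81 against 5.68 and did not reach the minimum. Summed over the 3 genes, the level per kilobase was 16.0 in Abcg1 cKO and 13.3 in the comparison group. The same sum for the IP3 receptors was 648 and 534, which was 40.5 and 40.1 times the ryanodine receptor sum.

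Itpr1 carried most of the IP3 receptor level. Its mean was 4721 in Abcg1 cKO and 3713 in the comparison group, a log2 ratio of 0.35, and it was counted as higher. In its range, a mean over all libraries of 1000 or more, 7.51% of genes were higher by 1.2-fold. Itpr2, a form of high IP3 affinity, had 1568 against 1409 and a log2 ratio of 0.15. Itpr3 had 322 against 333 and a log2 ratio of -0.05, the smallest difference of the 10 genes on this scale. Itpr1 made up 73.8% of the IP3 receptor level per kilobase in Abcg1 cKO and 70.5% in the comparison group, Itpr2 20.7% and 22.6%, and Itpr3 5.53% and 6.93%.

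Atp2a2, which encodes the widely used pump SERCA2, was the most abundant of the 10 genes per kilobase, at 774 in Abcg1 cKO and 678 in the comparison group. Its means were 4393 and 3848, a log2 ratio of 0.19. Atp2a3, which encodes SERCA3 of blood and endothelial cells and some epithelia, had 237 in Abcg1 cKO and 291 in the comparison group. The log2 ratio was -0.30, and Atp2a3 was the second gene counted as lower, in a range of means from 100 to 1000 where 9.36% of genes were. Lymphocyte markers were lower as well, as given above, and their part in the value of Atp2a3 was not tested. Atp2a1, the pump of fast skeletal muscle, was at 1.65 against 1.98, under the minimum in both groups. Atp2a2 made up 93.7% of the SERCA level in Abcg1 cKO and 91.4% in the comparison group.

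**Figure D3:**
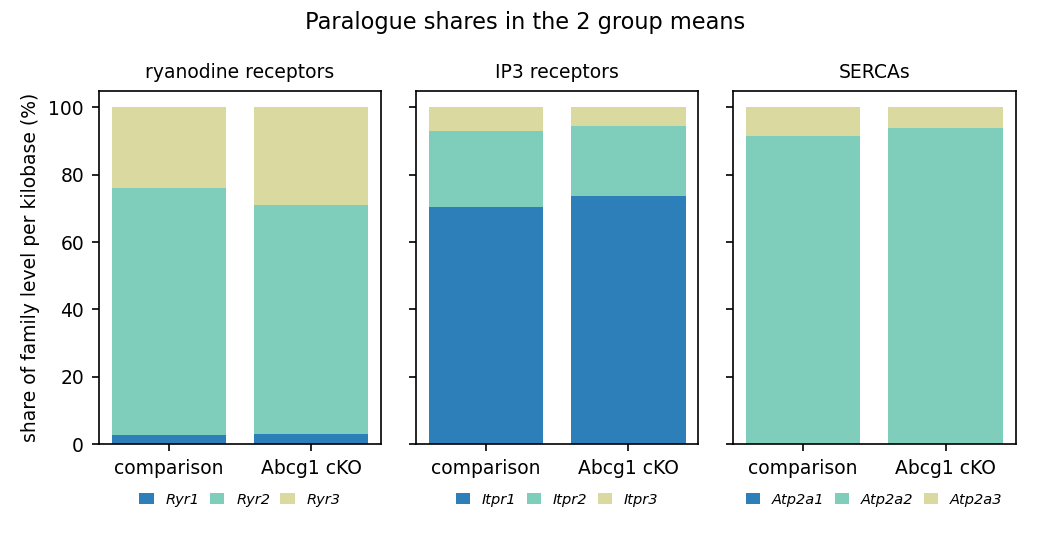
Share of each paralogue in the summed level per kilobase of its family (percent, stacked to 100), for ryanodine receptors, IP3 receptors and SERCA pumps in the comparison group and Abcg1 cKO. Ryr2, Itpr1 and Atp2a2 hold the largest share of their family in both groups, and the Ryr3 share is 28.9% in Abcg1 cKO and 24.0% in the comparison group.

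Ordered by level per kilobase in the comparison group, the genes were Atp2a2 at 678, Itpr1 at 376, Itpr2 at 121, Atp2a3 at 63.2, Jsrp1 at 57.5, Itpr3 at 37.0, Ryr2 at 9.75, Ryr3 at 3.19, Atp2a1 at 0.568 and Ryr1 at 0.370. In Abcg1 cKO, Jsrp1 came after Itpr3, at 18.1 against 35.8, and Ryr1 before Atp2a1. Whether neighbours in this order differ beyond the spread between animals is not known from group means. A lower level than that of Atp2a2 was found for 86.9% of the 13935 genes with a mean of 10 or more and a known length, against 32.3% for Jsrp1 and 9.38% for Ryr2.

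**Figure D4:**
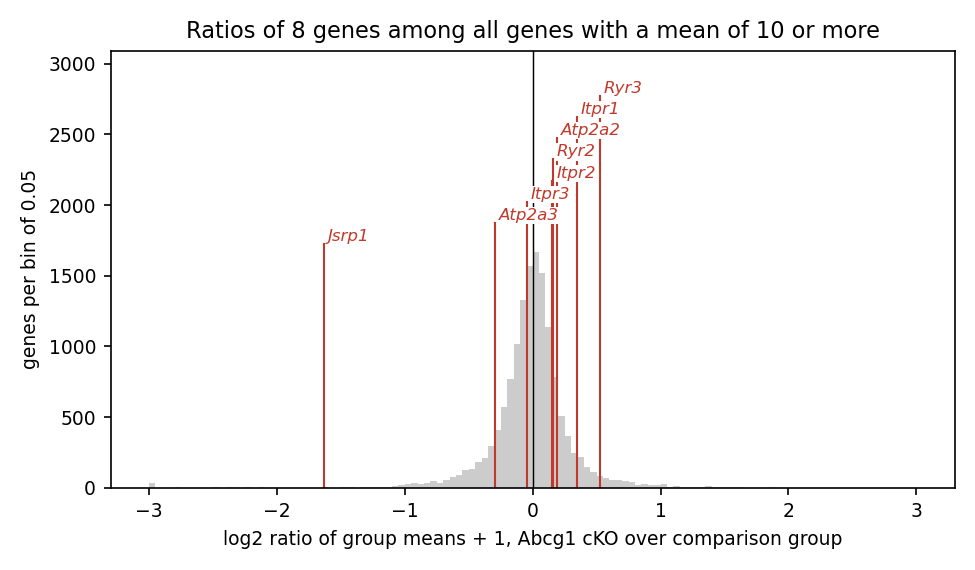
Number of genes per bin of 0.05 in log2 ratio, Abcg1 cKO over comparison group, for the 14479 genes with a mean of 10 or more in either group, with values beyond 3 in either direction drawn at the edge. Red lines mark the 8 members that were counted: Jsrp1 sits at -1.63, and the other 7 sit between -0.30 and 0.53.

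The wider calcium machinery was read from 8 lists covering the stages around release, with 130 genes in the table. Of these, 112 had a mean of 10 or more, and 14 (12.5%) were higher, 10 (8.93%) lower and 88 within 1.2-fold, shares near the 10.8% and 12.6% of all genes. The median log2 ratio was 0.05.

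Inside the ER, luminal calcium buffers and chaperones had a median log2 ratio of 0.13 over 14 counted genes, with 1 higher, none lower and 13 within 1.2-fold. The higher one was Rcn1, a reticulocalbin, at 0.28. Casq2, the calsequestrin of heart and smooth muscle, had 0.24, Hsp90b1, the most abundant chaperone of the list, 0.13, and Calr3 and Sepn1 had -0.11 and -0.09. At the junction, 21 genes of junctional proteins and ryanodine receptor partners had a median of 0.01, with 1 higher and 2 lower. Homer1, a scaffold that binds both kinds of release channel, was higher at 0.28. Jph2, a junctophilin that ties the ER to the plasma membrane, was lower beside Stac3, at -0.36.

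Among 14 IP3 receptor partners 1 was higher and none lower, with a median of 0.06. It was Ahcyl2, a relative of the IP3 receptor inhibitor IRBIT, at 4328 against 3140 and a log2 ratio of 0.46. IRBIT itself, encoded by Ahcyl1, had 0.15, and Bok, a BCL2 relative that binds IP3 receptors, had -0.21. Of 16 genes of IP3 generation 3 were higher and 4 lower, with a median of -0.02. The phospholipases C Plce1 and Plcb4 were higher at 0.48 and 0.39, Plch2 and Plcb2 were lower at -0.44 and -0.32, and Plcb1, the most abundant, had 0.08.

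SERCA regulators had a median of 0.09 over 4 counted genes, with none past 1.2-fold, and Thbs1 had the lowest value at -0.25. The muscle inhibitors of SERCA were all under a mean of 10: Pln, which encodes phospholamban, had 4.29 in Abcg1 cKO and 4.54 in the comparison group, Sln, sarcolipin, 0.307 and 0.939, and Mrln, myoregulin, 1.01 and 1.84. These inhibitors were named after their values were seen. Of 15 genes that remove calcium from the cytosol by routes other than the ER, 3 were higher and none lower, with a median of 0.09. Slc8a2, a sodium-calcium exchanger of neurons, had 0.67 and Atp2b4, a plasma membrane pump, 0.30.

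At the cell surface, 12 genes of store-operated entry had 1 higher, 1 lower and a median of 0.05. The store sensor Stim1 and the channel Orai1 had log2 ratios of 0.05 and 0.01, both named after their values were seen. Cracr2a, a regulator of the channel, was higher at 0.52 with means of 18.8 and 12.9, and Trpc6, a cation channel, was lower at -0.65 with means of 35.3 and 55.8. Of 17 voltage-gated calcium channel subunits 4 were higher and 3 lower, with a median of -0.04. Cacna1c, the pore of the cardiac and smooth muscle L-type channel, was lower at 3252 against 4456 and a log2 ratio of -0.45, in the range of means of 1000 or more where 1.96% of genes were lower. Cacna2d3, an auxiliary subunit, was lower at -0.49, and Cacng2 and Cacna1i were higher at 0.86 and 0.44 with means under 50. The mean of Cacng2 was 11.2 in Abcg1 cKO and 5.72 in the comparison group. Cacng2 thus reached the minimum mean only in Abcg1 cKO, where it was higher, so counting it depends on that filter.

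**Figure D5:**
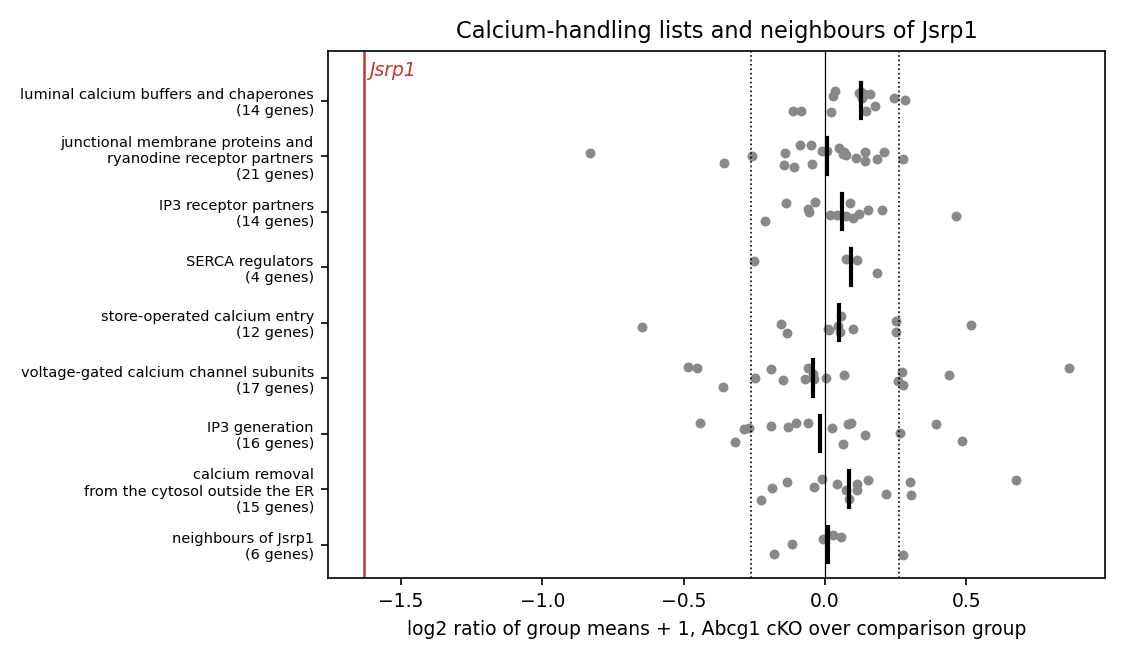
Log2 ratio of group means, Abcg1 cKO over comparison group, for the counted genes of 8 calcium-handling lists and of the neighbours of Jsrp1 (grey points, 1 per gene, spread vertically for clarity); black bars are list medians, dotted lines mark a fold of 1.2 and the red line marks Jsrp1. List medians lie between -0.04 and 0.13, and every point lies to the right of Jsrp1 at -1.63, with Stac3 nearest at -0.83. Jsrp1 was selected for its low level in this contrast.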

How the data were processed

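PolyA-selected, stranded RNA libraries of 12 whole adrenals were sequenced. As stated in the methods and processing notes, adapters were trimmed with cutadapt 4.0, reads were aligned with STAR 2.7.10a to mm10, unique alignments were summed per gene with HTSeq 0.13.5, and DESeq2 1.38.3 was used by the authors for normalization. For the strand setting of the counting, no value is given in these sources. The signal values used are mean normalized counts deposited by the authors for each group, that is counts over size factors, averaged. Columns of the authors' own comparison (log2 fold change, its error, p and adjusted p) were left out. A further 12 columns seem to hold single libraries, but their names fit no label of a sample and they were left out too. These columns were not assigned to groups by order or values, so the test across libraries that the design had intended was not run, and raw depth is not known here.

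Log2 ratios of the 2 group means used a pseudocount of 1. Genes with a mean of 10 or more in either group were counted as higher or lower past a fold of 1.2, the fold threshold of the study's methods. Levels per kilobase used the longest transcript in GENCODE M21 (GRCm38), matched by symbol for 23322 genes. Of the members, Ryr1, Ryr3, Itpr1, Itpr3 and Atp2a1 overlap 1 other gene of the table each. Genes were named by rule: all members, per list the 2 highest and 2 lowest ratios and the highest mean, the 2 most abundant markers, and all genes within 50 kb of Jsrp1; not every gene this takes in is printed, and exceptions are marked. The members and lists were chosen with earlier results of these data known. Alternatives were pseudocounts of 0.1 and 10, 2 other scalings, other filters and folds, and another transcript length. Computations used Python 3.11.15 and pandas 2.3.3 and were tested on simulated data.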

Additional observations from a re-analysis of the deposited data

How the results depend on the processing

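With pseudocounts of 0.1 and 10, ratios centred on their median, and group means scaled to equal totals, no member's log2 ratio past 1.2-fold turned its direction, and 1 of them moved by more than the log2 of 1.2 (0.26): Jsrp1 was at -1.35 with a pseudocount of 10. With the length of all annotated exons, family shares in the comparison group were 66.6% for Ryr2, 30.4% for Ryr3, 60.5% for Itpr1 and 28.4% for Itpr2. At a fold of 1.5, 2.89% of all genes were higher and 3.63% lower. At that fold 0 genes were higher in the luminal, junctional, IP3 partner, store-operated, IP3 generation and neighbour lists, 1 was higher among voltage-gated channels and 1 among removal genes, 1 was lower among junctional genes, and 0 were lower among voltage-gated channels and in IP3 generation. Over means of 50 or more, 1 junctional gene was lower, 0 store-operated genes were higher and 2 voltage-gated channel genes were higher. With no filter on low values, 2 luminal, 1 IP3 partner, 2 SERCA regulator, 6 voltage-gated channel, 1 removal and 2 neighbour genes were lower, and 6 voltage-gated channel genes and 3 members were higher. By level, a split chosen after seeing the data, 17.2% of genes were higher and 32.1% lower at means from 10 to 100, and 1.96% were lower at 1000 or more.

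No paired analysis was possible because the columns used are group means and carry no replicate numbers. For the same reason fits without single replicates, with other normalizations of the counts and of Abca1 cKO against control were not run. The spread between animals limits every value here and is not known from group means.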

Other observations

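Among genes with a mean of 1000 or more, 1.96% were lower by 1.2-fold in Abcg1 cKO, and 2 voltage-gated calcium channel pores of the list were in this class. Cacna1c, given above, was the first, and Cacna1h, the pore of the T-type channel of zona glomerulosa cells, was the second, at 1581 in Abcg1 cKO and 2031 in the comparison group (log2 ratio -0.36). Of the list's other genes in this range, Cacna2d1 and Cacnb2 had log2 ratios of -0.15 and -0.07, within 1.2-fold. Among pores at lower means, Cacna1a, Cacna1b, Cacna1d and Cacna1i had -0.04, 0.28, 0.26 and 0.44. Cacna1h was named after its value was seen, as were Cacnb2, Cacna1a, Cacna1b and Cacna1d. Over 5 zona glomerulosa markers the summed mean was 14886 in Abcg1 cKO and 16603 in the comparison group, with 3 of the 5 lower. The log2 ratio was 0.14 for Cyp11b2 and -0.25 for Dab2. Agtr1a, which encodes the main angiotensin II receptor upstream of IP3, had 3663 against 3047 (log2 ratio 0.27), while Agtr1b had 357 against 391 (log2 ratio -0.13). These receptor genes are named outside the rule given above. No test across animals stands behind these values.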
